A study of Saccharomyces cerevisiae with 4 samples.

Results

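The 346 chromosome XIII genes described here are the measured genes whose systematic names begin with YML (left arm) or YMR (right arm). They are 346 of the 4442 gene pairs counted in the series, with 107 on the left arm and 239 on the right arm. The rule that chose them leaves out 7 names, 5 of which were in the files. The chromosome was chosen by a measured value, the excess of RM over BY reads of its genes in a yeast hybrid compared with a co-culture. The excess common to its genes is therefore described below without a test. For this value, single genes were tested only for a difference from the median of that excess, which was taken from these same genes. The hybrid was WL201, an a/alpha diploid of BY4741 crossed with RM11-1alpha, and the labels name this 1 strain. The co-culture was a mixture of 2 haploid strains, BY4741 and RM11-1a, both of the MAT-a type. BY is a laboratory strain and RM descends from a vineyard isolate. Each culture was sampled in 2 libraries of polyA RNA, and the reads of each gene were counted for RM and for BY at SNP sites.

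In a hybrid, both parental alleles of a gene sit in the same nucleus and meet the same transcription factors, whereas in a co-culture each allele is read in its own strain. A regulatory difference that acts in cis, on its own DNA, can show in both cultures, while one that acts in trans, through a diffusible factor, shows between the strains but not between alleles that share a nucleus. Genes that neighbour each other on a yeast chromosome seldom belong to the same pathway. Chromosome XIII carries enzymes of ergosterol synthesis, NADH dehydrogenases of mitochondria, ribosome assembly factors, nuclear pore proteins and an iron uptake oxidase, and these groups order the results.

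The promoters of 3 genes are shown because their RM over BY changed between the cultures unlike that of the chromosome, each in its own way. FET3 had near equal alleles in both cultures and FET4 stayed higher in BY. GCV2 was led by RM in the hybrid and by BY in the co-culture. Each run holds 250 bases before and 50 bases after the gene start, 5′ to 3′ on the gene's strand, from the RefSeq R64 genome. FET3 lies at chrXIII:388572-388871 on the plus strand, FET4 at chrXIII:914489-914788 on the minus strand and GCV2 at chrXIII:637250-637549 on the plus strand. Capitals mark 3 motifs, on either strand: the TATA box core TATAAA, the letters TGCACCC found in sites of the iron factor Aft1, and the letters TGACTC found in sites of the amino acid factor Gcn4. The FET4 window has a pair of TATAAA matches on opposite strands that overlap.
FET3: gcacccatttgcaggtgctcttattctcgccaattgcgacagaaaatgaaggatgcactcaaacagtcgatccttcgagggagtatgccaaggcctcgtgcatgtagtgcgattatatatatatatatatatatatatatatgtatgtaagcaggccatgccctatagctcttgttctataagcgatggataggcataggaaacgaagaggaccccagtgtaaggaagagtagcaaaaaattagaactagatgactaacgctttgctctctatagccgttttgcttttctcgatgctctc
FET4: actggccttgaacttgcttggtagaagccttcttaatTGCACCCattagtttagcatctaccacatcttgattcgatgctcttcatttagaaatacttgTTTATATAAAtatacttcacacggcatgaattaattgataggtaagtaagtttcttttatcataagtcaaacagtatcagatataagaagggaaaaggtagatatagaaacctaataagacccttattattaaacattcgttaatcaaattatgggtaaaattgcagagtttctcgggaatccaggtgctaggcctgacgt
GCV2: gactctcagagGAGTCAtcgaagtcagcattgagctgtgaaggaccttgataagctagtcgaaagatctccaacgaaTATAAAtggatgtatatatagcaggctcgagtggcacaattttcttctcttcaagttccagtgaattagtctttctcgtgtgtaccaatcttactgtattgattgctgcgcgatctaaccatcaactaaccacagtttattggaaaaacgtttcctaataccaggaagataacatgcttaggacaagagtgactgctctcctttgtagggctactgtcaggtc
The TATA core stood in 45.2% of the windows of all 6001 protein-coding genes, the Aft1 letters in 1.30% and the Gcn4 letters in 7.98%. The Aft1 and Gcn4 letters were picked after values had been seen. The FET3 window held none of the 3 motifs in full, the FET4 window held the TATA core and the Aft1 letters, and the GCV2 window held the TATA core and the Gcn4 letters. The FET3 window opens with all but the first letter of the Aft1 motif and the GCV2 window with all but the first letter of the Gcn4 motif, and the base before each lies outside the window.

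Libraries held 2809121 and 4183129 reads in hybrid replicates 1 and 2, and 2692044 and 3143817 reads in co-culture replicates 1 and 2. Per the labels these are technical replicates, and p-values measure the spread between such samples only. Replicates differed by more than counting noise, with a chi-square per degree of freedom of 1.57 to 1.96. Markers of MAT-a cells (4 genes) summed to 92.6 and 94.2 CPM (counts scaled to library size) in the hybrid, against 6711 and 6819 CPM in the co-culture. Markers of haploid cells (4 genes) summed to 11.0 and 14.3 CPM in the hybrid, against 643 and 652 CPM in the co-culture. The levels of both classes fit the labelled cell types. Markers of MAT-alpha cells (2 genes) summed to 21.0 and 19.4 CPM in the hybrid, against 37.1 and 37.9 CPM in the co-culture. Ploidy, mating type and the RM parent differ together between the groups and cannot be told apart. In bulk RNA, fewer cells and less RNA per cell cannot be told apart either, and no DNA was measured in the files used here.

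RM reads made up more of the chromosome XIII reads in hybrid libraries than in co-culture libraries. The RM share was 59.1% (95% Wilson interval 58.9 to 59.2) and 59.0% (58.9 to 59.2) in hybrid replicates 1 and 2. It was 52.5% (52.3 to 52.8) and 52.6% (52.4 to 52.8) in co-culture replicates 1 and 2, and these intervals cover counting error only. Over the 4091 genes outside the chromosome it was 49.4% and 49.5% in the hybrid, against 50.3% and 50.3% in the co-culture. The chromosome also took a larger part of all reads in the hybrid, with 9.63% and 9.54%, against 7.88% and 7.75% in the co-culture.

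Gene by gene, RM lay above BY at much the same level along the whole chromosome in the hybrid. Among the 263 genes whose 8 allele columns averaged 50 reads or more, the median log2 RM over BY was 0.51 and 0.52 in the hybrid libraries, against 0.07 and 0.03 in the co-culture libraries. RM exceeded BY in both hybrid libraries for 237 of these genes, where it did for 36.6% of all genes with as many reads. Both hybrid libraries lay above both co-culture libraries for 213 genes and below them for 12, where 30.5% and 33.4% of all such genes did, and nothing is read from these counts, since the same values chose the chromosome. The difference, log2 RM over BY in the hybrid minus that in the co-culture, had a median of 0.50 (1.41-fold) over the 333 genes that passed the filter on low counts.

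**Figure D1:**
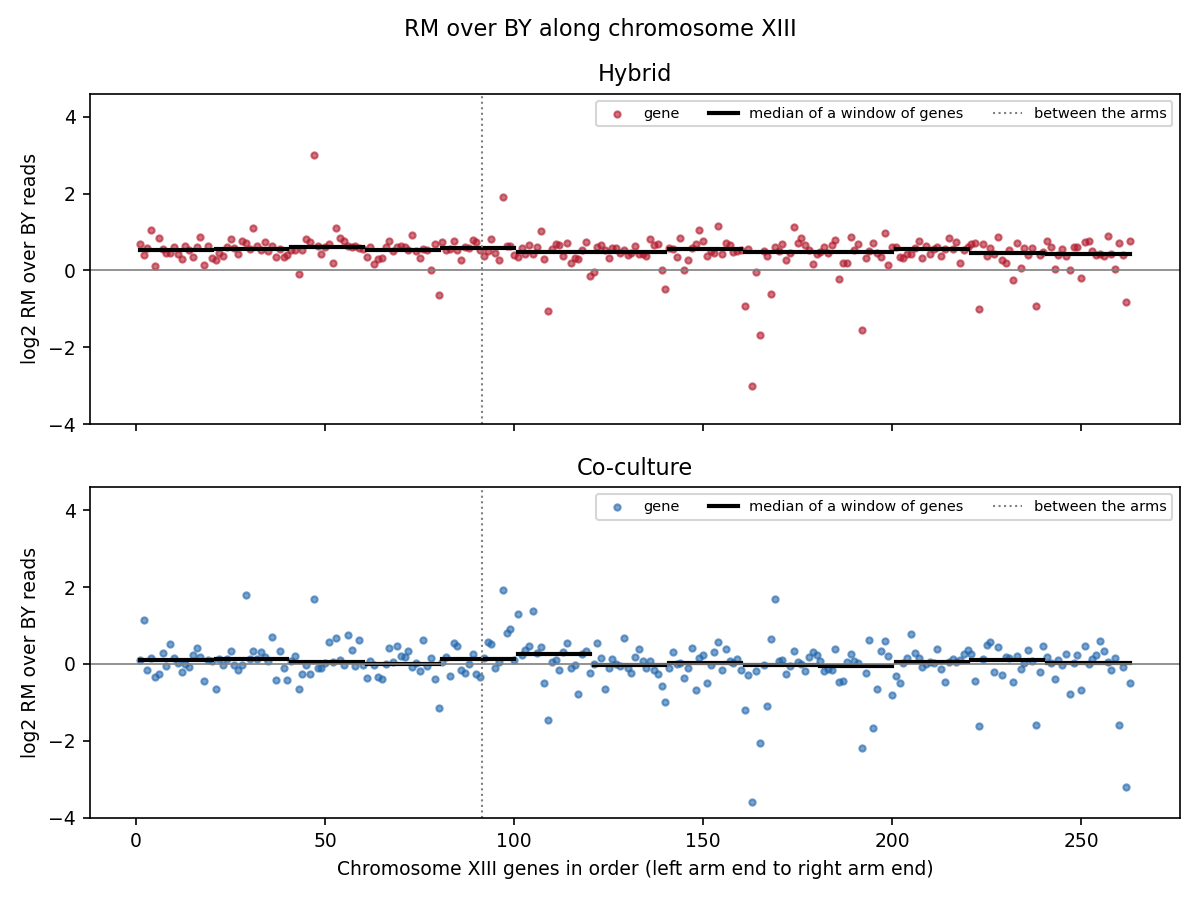
Log2 RM over BY reads of 263 chromosome XIII genes whose 8 allele columns averaged 50 reads or more, in order along the chromosome (horizontal axis), in the hybrid (top) and the co-culture (bottom). Points are genes and black bars are medians of windows of 20 genes (23 in the last), which lie between 0.43 and 0.62 in the hybrid.

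Windows of 20 neighbouring genes had median log2 RM over BY between 0.43 and 0.62 in the hybrid. The 91 genes of the left arm had a hybrid median of 0.57 and a median difference from the co-culture of 0.51, and the 172 genes of the right arm had 0.50 and 0.45. The smallest median differences, 0.33 and 0.34, were in the 2 neighbouring windows that run from UBX2 to ANY1 and from HXT2 to AAC1. Hybrid medians in these windows were 0.57 and 0.48, beside co-culture medians of 0.12 and 0.25. In the hybrid the genes spread about their median as widely as the rest of the genome did about its own. The interquartile range was 0.28, against 0.27 over 3084 genes outside the chromosome, and 80.6% against 79.2% of genes lay within 0.32 of the median.

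The RM alleles, not the BY alleles, stood away from their haploid level. The 263 genes had a median log2 change of 0.51 for the RM alleles in the hybrid against the RM haploid of the co-culture, and of 0.06 for the BY alleles against the BY haploid. On the other 15 chromosomes these medians ran from −0.05 to 0.04 for RM and from −0.10 to 0.10 for BY. Of 331 RM alleles tested, 211 rose and 6 fell in the hybrid, where 13.8% and 13.5% of all RM alleles did. Of 328 BY alleles tested, 73 (22.3%) rose and 41 (12.5%) fell, where 19.7% and 17.8% of all BY alleles did, and with columns scaled by their totals alone the split was 56 and 56. Totals, the sum of both alleles, rose for 164 and fell for 13 of 336 genes, where 17.7% of all genes rose and 17.7% fell. These tests share the hybrid libraries with the choice of the chromosome and support nothing about it.

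**Figure D2:**
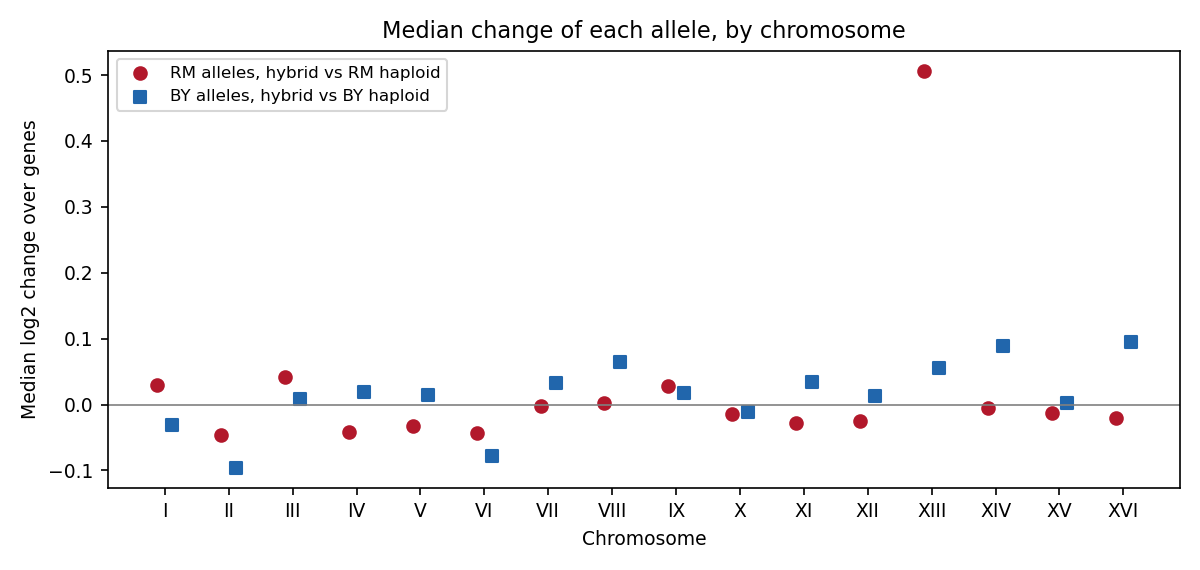
Median log2 change of the RM alleles (circles, hybrid against the RM haploid) and of the BY alleles (squares, hybrid against the BY haploid) for each chromosome, over genes whose 8 allele columns averaged 50 reads or more. Chromosome XIII has a median of 0.51 for RM, above the −0.05 to 0.04 of the other chromosomes, and of 0.06 for BY, within their −0.10 to 0.10.

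The genes spread about the common difference much as other genes did about theirs. With a range of 0.32 around its median (0.18 to 0.82), 178 of the 263 genes (67.7%) lay inside, 49 (18.6%) below and 36 (13.7%) above, while the other 83 genes had too few reads to be counted. About their own medians, 67.3% of these 263 genes and 65.5% of 3084 genes outside the chromosome lay within 0.32, so the share that kept the difference is no result about the chromosome. At the lower limit PSE1 lay outside with 0.17 and APT1 inside with 0.18, and at the upper limit ATP25 lay inside with 0.81 and VBA1 outside with 0.82. A range of 0.50 left 26 below and 17 above. NUP188, a scaffold protein of the nuclear pore, had 1234 RM and 822 BY reads in hybrid replicate 1, and 1944 RM and 1203 BY reads in hybrid replicate 2. It had 854 RM and 806 BY reads in co-culture replicate 1, and 951 RM and 937 BY reads in co-culture replicate 2. RM and BY were thus near even in the co-culture, and RM led in both hybrid libraries. The log2 change against the haploid was 0.54 ± 0.07 for its RM allele and 0.03 ± 0.07 for its BY allele (SE, n = 2 libraries per group here and below).

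NUP188 was 1 of the 6 most abundant genes within 0.10 of the median difference, and the others came from unrelated processes. TCB3, a tether of the endoplasmic reticulum to the plasma membrane, had log2 RM over BY of 0.56 and 0.50 in the hybrid libraries, against −0.00 and 0.17 in the co-culture libraries. SWP1 of the oligosaccharyltransferase had 0.43 and 0.47 in the hybrid, against −0.02 and −0.08 in the co-culture. TIF11, which encodes the translation factor eIF1A, had 0.73 and 0.69 in the hybrid, against 0.17 and 0.22 in the co-culture. In each of these genes both hybrid libraries lay above both co-culture libraries. ADH6, an NADPH-dependent alcohol dehydrogenase near the right end, had 0.49 and 0.34 in the hybrid, against −0.04 and −0.11 in the co-culture. UTP14 of the small ribosomal subunit processome had 0.38 and 0.44 in the hybrid, against −0.20 and −0.12 in the co-culture. Its BY allele also rose, by 0.37 ± 0.07 on the log2 scale, beside 0.94 ± 0.08 for its RM allele.

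The co-culture ratio by itself, which is 1 side of the difference that picked the chromosome, compared the strains in their own cells. Of 333 tested genes, 69 (20.7%) were higher in RM and 49 (14.7%) higher in BY in edgeR's test at an adjusted p of 0.05, where 23.4% and 19.8% of all genes were (43.2% either way). With column totals alone the split was 55 and 71, and with a library total shared by both alleles 65 and 62. DESeq2 called 38 higher in RM and 23 higher in BY. Without co-culture replicate 1 the count for BY was 29, and without co-culture replicate 2 it was 30.

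PLB2, a phospholipase B, had the highest RM over BY in the co-culture among genes with at least 50 reads. It had 3735 RM and 946 BY reads in hybrid replicate 1 and 5227 RM and 1409 BY reads in hybrid replicate 2. In the co-culture it had 2873 RM and 827 BY reads in replicate 1, and 3271 RM and 862 BY reads in replicate 2. Its log2 RM over BY was 1.92 ± 0.04 in the hybrid, against 1.92 ± 0.04 in the co-culture (adjusted p = 1.29e-39 for the co-culture, edgeR), so the ratios were equal within their errors, and PLB2 departed from the common difference described below by −0.51 ± 0.06 (adjusted p = 2.73e-10, edgeR). SMA2, needed for spore membranes, had 3.01 ± 0.23 in the hybrid, against 1.68 ± 0.23 in the co-culture (adjusted p = 1.92e-09 for the co-culture, edgeR), with 13 to 30 BY reads in a library. RPM2, NDE1, ERG5, HXT2, NDI1 and ADI1 were the other genes of the 8 highest and are described with their departures.

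At the other end, several genes were so much higher in BY in the co-culture that BY still led in the hybrid, and none of the 5 given here had a called departure. ERG29, which acts in ergosterol synthesis, had 19 RM and 180 BY reads in hybrid replicate 1 and 30 RM and 208 BY reads in hybrid replicate 2. It had 9 RM and 125 BY reads in co-culture replicate 1, and 11 RM and 128 BY reads in co-culture replicate 2. Its log2 RM over BY was −3.00 ± 0.22 in the hybrid, against −3.60 ± 0.33 in the co-culture (adjusted p = 2.46e-18 for the co-culture, edgeR). BY led in all 4 libraries of ERG29, by less in the hybrid. RTP1, an import factor of RNA polymerase II, had −1.54 ± 0.20 in the hybrid, against −2.18 ± 0.28 in the co-culture. PSO2, a nuclease of crosslink repair, had −1.67 ± 0.20 in the hybrid, against −2.06 ± 0.25 in the co-culture. BCH1, a cargo adaptor for cell surface proteins, had −1.01 ± 0.11 in the hybrid, against −1.61 ± 0.14 in the co-culture. All 3 stood nearer to even in the hybrid, as did the transporter gene ATR2, with −0.94 ± 0.18 in the hybrid, against −1.60 ± 0.21 in the co-culture. In all, 18 of the 263 genes had a hybrid ratio at or below 0, and 14 of these were called higher in BY in the co-culture, where 19.8% of all genes were.

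**Figure D3:**
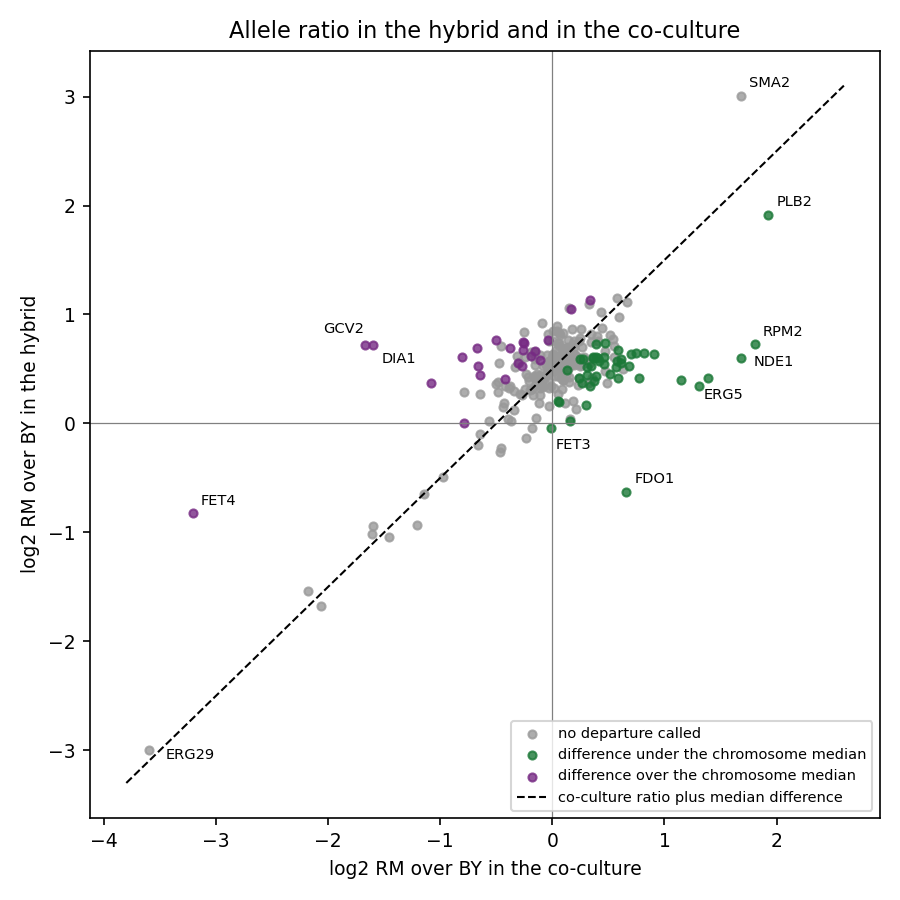
Log2 RM over BY of hybrid (vertical axis) and co-culture (horizontal axis) for 263 chromosome XIII genes whose 8 allele columns averaged 50 reads or more. The dashed line is the co-culture ratio plus the median difference of 0.50, green and purple points are genes whose difference was called under or over that median, and FET3 lies near 0 on both axes.

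Single genes were tested for a departure, meaning a difference that is not the chromosome median of 0.50. Of 333 genes, 27 (8.11%) lay over and 46 (13.8%) under the median, where 8.83% and 14.6% of all genes were called by the same fit with a null at 0 for genes of other chromosomes. The share of departing genes was thus near that of all genes, and is no result about the chromosome. DESeq2 called 3 over and 21 under. The count over the median was 17 and 15 without hybrid replicates 1 and 2, and 11 and 16 without co-culture replicates 1 and 2. Of the 36 departing genes given below or above, 19 kept the call under each alternative run, and these are pointed out below. The difference contains the ratios of both cultures, so a gene far from even in the co-culture can depart without an unusual ratio in the hybrid. The 45 genes under the median with at least 50 reads had a median log2 RM over BY of 0.53 in the hybrid, against 0.46 in the co-culture, and the 23 over it had 0.67 in the hybrid, against −0.38 in the co-culture.

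FET3, the ferroxidase of high-affinity iron uptake, had near equal alleles in each library and no RM excess. It had 1610 RM and 1701 BY reads in hybrid replicate 1 and 2412 RM and 2387 BY reads in hybrid replicate 2. In the co-culture it had 1666 RM and 1741 BY reads in replicate 1, and 1845 RM and 1949 BY reads in replicate 2. Its log2 RM over BY was −0.04 ± 0.04 in the hybrid, against −0.01 ± 0.04 in the co-culture, and its departure was −0.53 ± 0.05 (adjusted p = 5.35e-12, edgeR), called under each alternative. Neither allele passed the test against its haploid, with log2 changes of −0.08 ± 0.07 for RM and −0.04 ± 0.06 for BY. PPZ1, a protein phosphatase picked here after its values were seen, had 0.02 ± 0.06 in the hybrid, against 0.16 ± 0.07 in the co-culture, and a departure of −0.63 ± 0.10 (adjusted p = 6.27e-07, edgeR). PPZ1 and PLB2 too were called under each alternative.

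FDO1, which encodes a partner of the forkhead factor Fkh1, had the lowest departure among genes averaging 50 reads or more per allele column and was the only one of 65 genes called higher in RM in the co-culture, at 50 reads or more, in which RM did not lead in the hybrid. It had 73 RM and 109 BY reads in hybrid replicate 1 and 115 RM and 178 BY reads in hybrid replicate 2. It had 71 RM and 44 BY reads in co-culture replicate 1, and 71 RM and 50 BY reads in co-culture replicate 2. RM led in both co-culture libraries and BY in both hybrid libraries. The log2 RM over BY was −0.63 ± 0.14 in the hybrid, against 0.66 ± 0.19 in the co-culture, a departure of −1.78 ± 0.23 (adjusted p = 1.52e-08, edgeR) called under each alternative. The BY allele stood 1.42 ± 0.18 above its haploid on the log2 scale, and the RM allele 0.13 ± 0.18. FDO1 lies between RPS16A and NDE1, which also departed, over and under the median.

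In NDE1 and several others under the median, the strains differed in the co-culture and the hybrid ratio lay near that of the chromosome. NDE1, the external NADH dehydrogenase of mitochondria, had 5604 RM and 3647 BY reads in hybrid replicate 1 and 8417 RM and 5483 BY reads in hybrid replicate 2. It had 4073 RM and 1314 BY reads in co-culture replicate 1, and 4833 RM and 1586 BY reads in co-culture replicate 2. RM led in all 4 libraries, by more in the co-culture. The log2 ratio was 0.60 ± 0.03 in the hybrid, against 1.68 ± 0.03 in the co-culture (adjusted p = 1.79e-41 for the co-culture, edgeR), the departure −1.58 ± 0.04 (adjusted p = 1.05e-34, edgeR). Its BY allele stood 1.47 ± 0.06 above the BY haploid and its RM allele 0.38 ± 0.07 above the RM haploid.

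RPM2, the protein subunit of mitochondrial RNase P, gave the same picture, with 0.81 and 0.66 in the hybrid libraries, against 1.71 and 1.89 in the co-culture libraries. Its departure was −1.58 ± 0.08 (adjusted p = 6.69e-23, edgeR), and its BY allele rose by 1.41 ± 0.08. HXT2, a glucose transporter, had 0.36 and 0.34 in the hybrid, against 1.37 and 1.24 in the co-culture, with a departure of −1.46 ± 0.08 (adjusted p = 1.28e-20, edgeR). NDI1, the internal NADH dehydrogenase, had 0.42 and 0.38 in the hybrid, against 1.19 and 1.10 in the co-culture, and departed by −1.25 ± 0.10 (adjusted p = 2.41e-15, edgeR). In all 3 genes the hybrid libraries lay within 0.32 of 0.54, the chromosome's median hybrid ratio, and below both co-culture libraries. PLB1, a phospholipase B like PLB2, fell with both alleles, with log2 changes of −0.53 ± 0.09 for RM and −0.35 ± 0.09 for BY, and departed by −0.67 ± 0.11. ADI1, a dioxygenase of methionine salvage, departed by −0.77 ± 0.18 and NIP1, a subunit of translation factor eIF3, by −0.67 ± 0.12. The departures of NDE1, RPM2, HXT2, NDI1 and PLB1 were called under each alternative, whereas ADI1 lost its call with DESeq2 and without co-culture replicate 2, and NIP1 with DESeq2.

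**Figure D4:**
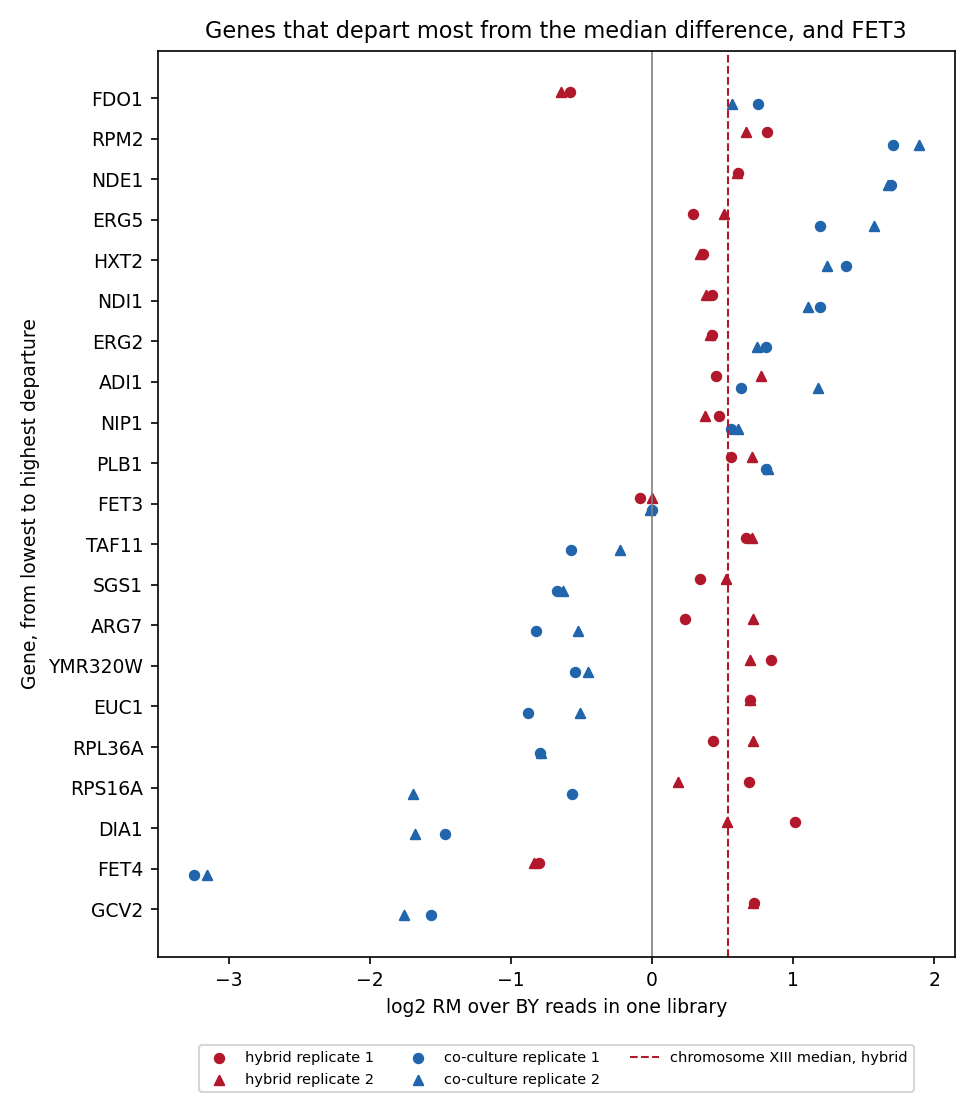
Log2 RM over BY in each library (horizontal axis) for the 10 genes furthest under and the 10 furthest over the median difference among called genes that averaged 50 reads or more per allele column and had both hybrid libraries on the same side, and for FET3. Red marks are hybrid libraries and blue marks co-culture libraries, and in most genes the red marks gather near the dashed hybrid median of 0.54 while the blue marks lie to the right in the upper rows and to the left in the lower rows.

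Among genes over the median, GCV2 was led by RM in the hybrid and by BY in the co-culture. GCV2, a subunit of the glycine cleavage system, had 188 RM and 113 BY reads in hybrid replicate 1 and 323 RM and 194 BY reads in hybrid replicate 2. It had 105 RM and 326 BY reads in co-culture replicate 1, and 119 RM and 421 BY reads in co-culture replicate 2. BY thus led by a wide margin in the co-culture and RM in the hybrid. The log2 ratio was 0.72 ± 0.11 in the hybrid, against −1.67 ± 0.11 in the co-culture (adjusted p = 8.2e-20 for the co-culture, edgeR), the departure 1.89 ± 0.15 (adjusted p = 2.12e-15, edgeR). The BY allele stood 1.47 ± 0.11 below its haploid on the log2 scale, while the RM allele rose by 0.91 ± 0.13.

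FET4, the low-affinity iron transporter near the right end, had the second largest difference between the strains, and BY led in each library. It had 252 RM and 437 BY reads in hybrid replicate 1 and 352 RM and 620 BY reads in hybrid replicate 2. It had 64 RM and 639 BY reads in co-culture replicate 1, and 75 RM and 702 BY reads in co-culture replicate 2. BY led by far less in the hybrid. The log2 ratio was −0.82 ± 0.08 in the hybrid, against −3.21 ± 0.13 in the co-culture (adjusted p = 6.25e-32 for the co-culture, edgeR), and the departure was 1.89 ± 0.15 (adjusted p = 2.94e-16, edgeR). Its RM allele rose by 1.85 ± 0.14 and its BY allele fell by 0.53 ± 0.08, and the total did not pass the test (−0.06 ± 0.07). DIA1, linked to invasive growth, departed by 1.82 ± 0.31 (adjusted p = 4.11e-06, edgeR), on 16 to 47 reads per allele in the hybrid, against 46 to 192 in the co-culture. It overlaps another annotated gene, so its reads are uncertain. GCV2, FET4 and DIA1 kept their calls under each alternative.

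The other 7 of the 10 genes furthest over the median, among those averaging 50 reads or more per allele column, each lost the call under at least 1 alternative. RPS16A (0.96 ± 0.34) and RPL36A (0.91 ± 0.25) encode ribosomal proteins with a near-identical second gene, so their counts are uncertain. EUC1 (0.87 ± 0.23), a transcription factor, ARG7 (0.68 ± 0.16) of arginine synthesis, the helicase gene SGS1 (0.60 ± 0.19), the TFIID subunit TAF11 (0.57 ± 0.17) and YMR320W (0.77 ± 0.26), of unknown function, completed the 10. EUC1, ARG7, SGS1, TAF11 and RPL36A lost it with DESeq2, which gave RPS16A and YMR320W no adjusted p. YMR320W lost it without any 1 of the 4 libraries, and SGS1 without any but hybrid replicate 1. TAF11 and EUC1 lost it without co-culture replicate 1, ARG7 without that library or hybrid replicate 2, RPL36A without hybrid replicate 2 or co-culture replicate 2, and RPS16A without hybrid replicate 1 or co-culture replicate 2. In each of the 7, RM led in both hybrid libraries and BY in both co-culture libraries.

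Gene groups are read against the calls over the whole chromosome, where 48.8% of totals, 63.7% of RM alleles and 22.3% of BY alleles rose, and 8.11% and 13.8% of genes departed over and under the median. A count near these shares is no result about a group. All 9 measured ribosome assembly factors of 11 listed rose in total, RM and BY levels, with median log2 changes of 0.67, 0.83 and 0.45. The medians over chromosome XIII genes were 0.26, 0.50 and 0.03, and those over all genes −0.01, −0.00 and −0.01. Over all genes 17.7% of totals, 13.8% of RM alleles and 19.7% of BY alleles rose. ERB1, which acts in maturation of the large subunit rRNAs, stood at 460.2 and 467 CPM in the hybrid, against 314 and 291 CPM in the co-culture. HAS1, an RNA helicase of both subunits, stood at 542 and 595 CPM in the hybrid, against 417 and 443 CPM in the co-culture. The hybrid libraries of both genes lay above the co-culture libraries. RRP5, an rRNA processing factor, departed by −0.26 ± 0.06 and the nucleolar isomerase FPR3 by 0.33 ± 0.07, and the other 7 were not called. Both lost the call with DESeq2, and RRP5 also without co-culture replicate 2. Of the 5 measured mitochondrial ribosomal protein genes, 5 rose in total, where 48.8% of totals on the chromosome did. Their median was 0.62, against 0.26 over the chromosome. MRPS8 alone was called, with a departure of −0.63 ± 0.16 that was lost with DESeq2 and without hybrid replicate 2 or co-culture replicate 1. Of 10 listed cytosolic ribosomal protein genes only 4 were measured, all with near-identical copies. Their totals rose by a median of 1.04, against 0.26 over the chromosome. RPL6A (1.49 ± 0.39, named after its values were seen, and not called without co-culture replicate 2), RPS16A and RPL36A departed over the median, and RPS18B (−0.36 ± 0.42) was not called. RPL6A and RPS18B averaged under 50 reads per allele column, and DESeq2 gave RPL6A no adjusted p.

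All 5 listed nuclear pore genes rose in total and in the RM allele. Their medians were 0.46 and 0.62, against 0.26 and 0.50 over the chromosome. In the BY allele 3 rose, and none of the 5 departed in edgeR's test. On the whole chromosome 48.8% of totals, 63.7% of RM alleles and 22.3% of BY alleles rose and 21.9% of genes departed either way, so a lack of calls among 5 genes is no result about the pore. NUP53 had log2 RM over BY of 0.58 and 0.79 in the hybrid libraries, against 0.06 and 0.05 in the co-culture libraries. NDC1 had 0.63 and 0.58 in the hybrid, against 0.10 and −0.09 in the co-culture. In both, RM and BY were near even in the co-culture, whereas POM152, the membrane anchor of the pore, had −0.93 ± 0.10 in the hybrid, against −1.21 ± 0.14 in the co-culture. Of 6 TFIID subunits, 5 rose in the RM allele and 1 in the BY allele, and TAF11 was the only member to depart, where 63.7% of RM alleles and 22.3% of BY alleles on the chromosome rose and 21.9% of its genes departed either way, so these counts are near those of the chromosome.

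Of 7 measured sterol and lipid enzymes, 4 departed under the median and 0 over it, where 13.8% and 8.11% of chromosome XIII genes did. In total 6 rose, where 48.8% did, with a median of 0.47, against 0.26 over the chromosome. In the co-culture 5 of the 7 were higher in RM and 2 higher in BY, where 20.7% and 14.7% of chromosome XIII genes were. The difference contains the co-culture ratio, so these counts are not separate results. The list was chosen with earlier results of these data known, so nothing is read from the counts about the group. ERG5, the sterol desaturase, had 0.29 and 0.51 in the hybrid libraries, against 1.19 and 1.57 in the co-culture libraries, and departed by −1.47 ± 0.12 (adjusted p = 1.65e-15, edgeR). ERG2, the sterol isomerase, had 0.42 and 0.41 in the hybrid, against 0.80 and 0.74 in the co-culture, and departed by −0.86 ± 0.07 (adjusted p = 8.87e-16, edgeR). ERG6, the sterol methyltransferase, departed by −0.42 ± 0.05 and LCB1, which starts sphingolipid synthesis, by −0.39 ± 0.06. In these 4 genes RM led in the co-culture, and each kept its call under each alternative. Of 8 respiratory genes, NDI1 and NDE1 departed under the median and YTA12, a subunit of an inner membrane protease, over it by 0.44 ± 0.10, which DESeq2 did not call. With 13.8% and 8.11% of chromosome XIII genes under and over the median, the counts of the respiratory genes are no result about that group. ZRC1, the vacuolar zinc transporter, had 0.57 ± 0.04 in the hybrid, against 0.57 ± 0.05 in the co-culture, with both alleles up by 0.70 ± 0.07 (RM) and 0.70 ± 0.06 (BY), and so departed by −0.50 ± 0.06. The other metal genes tested, FET3 and FET4, are described above, and MMT1 had too few reads to test.

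Genes of amino acid and nucleotide synthesis differed among themselves. Of 9 tested, 2 departed over the median (GCV2 and ARG7) and 3 under it, namely ADI1, URA5 (−0.31 ± 0.06), which acts in pyrimidine synthesis and was not called by DESeq2, and the GMP synthase gene GUA1 (−0.29 ± 0.04). On the chromosome 8.11% departed over and 13.8% under it. Of 13 tested genes of DNA repair and replication, 4 were higher in BY and 0 higher in RM in the co-culture, and 9 rose in the RM allele and 0 in the BY allele in the hybrid. The shares over the chromosome were 14.7% and 20.7% in the co-culture, and 63.7% for RM alleles and 22.3% for BY alleles in the hybrid, so the RM alleles of these genes rose about as often as those of the chromosome. SGS1 was the only one of them to depart. Of 5 stress genes, 3 rose in total and 1 fell (median 0.19), where 48.8% and 3.87% of totals on the chromosome did. The peroxidase gene TSA1 alone departed, by −0.35 ± 0.05, and the trehalose synthase gene TSL1 fell in total by 0.35 ± 0.10. The departures of GUA1, TSA1 and ZRC1 were called under each alternative.

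**Figure D5:**
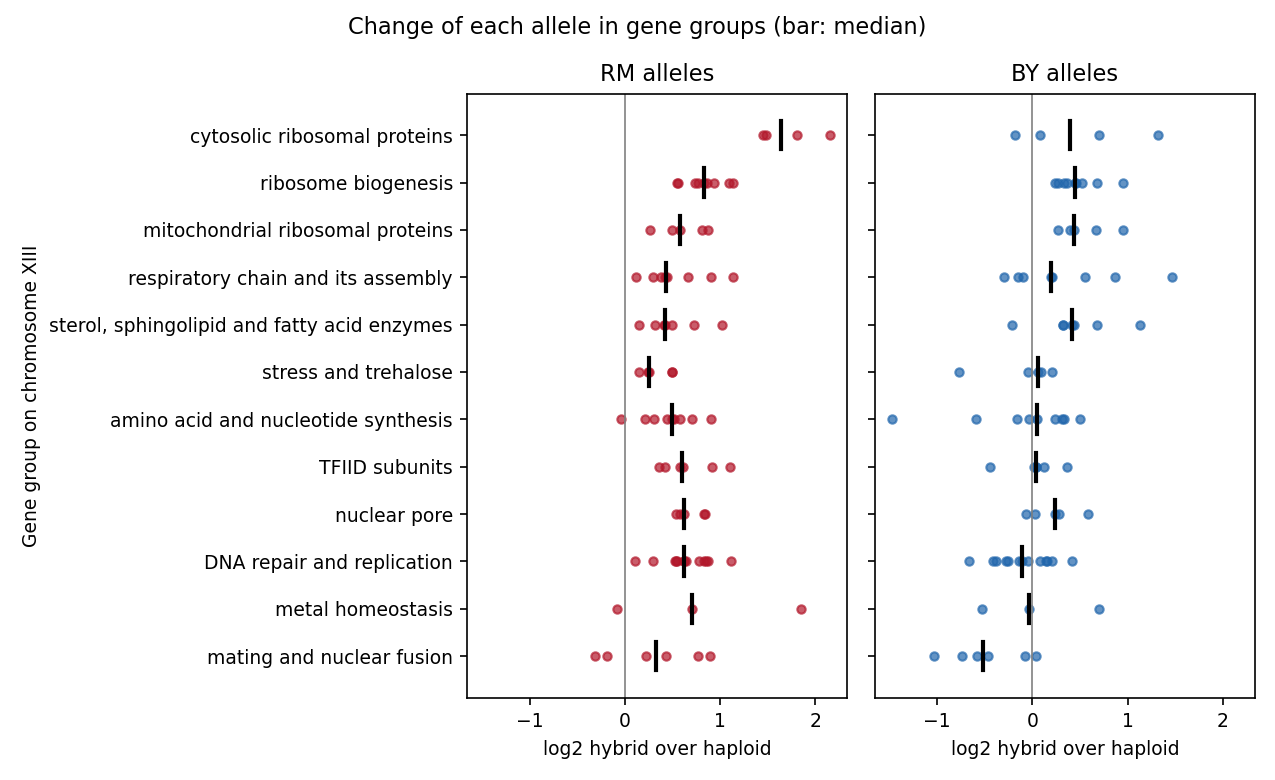
Log2 change of the RM allele (left) and of the BY allele (right) in the hybrid against the haploid, for tested members of 12 gene groups on chromosome XIII. Points are genes and bars are group medians, with RM at 0.83 and BY at 0.45 for ribosome biogenesis, and RM at 0.62 and BY at 0.24 for the nuclear pore. Over tested chromosome XIII genes the medians were 0.50 for RM and 0.03 for BY.

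A small number of genes fell in the hybrid although the chromosome rose. GAT2, a GATA-type factor named here after its values were seen, had the largest fall in total among the chromosome XIII genes. It stood at 14.1 and 16.8 CPM in the hybrid, against 80.9 and 84.7 CPM in the co-culture. Its alleles fell together, with log2 changes of −2.33 ± 0.23 for RM and −2.46 ± 0.22 for BY, so that RM and BY stayed near even. The log2 change in total was −2.40 ± 0.17. DIA1 was next at −1.98 ± 0.16, and the cell wall gene NCW1, also named after its values were seen, fell by 0.63 ± 0.07. Among 6 measured genes of mating and nuclear fusion, 2 fell in total and 3 in the BY allele, where 3.87% of totals and 12.5% of BY alleles on the chromosome and 17.7% and 17.8% over all genes fell. The 6 genes had median log2 changes of 0.10 in total, 0.32 for RM alleles and −0.52 for BY alleles, and 0 rose in total. The medians over the chromosome were 0.26, 0.50 and 0.03, so the group did not fall as a whole. SCW10 departed by −0.23 ± 0.05 (not called by DESeq2) and FAR3, of pheromone arrest, by 1.13 ± 0.34, a call lost without hybrid replicate 1 or either co-culture replicate. FAR3 averaged under 50 reads per allele column. KAR5, needed for nuclear fusion and named after its values were seen, as FAR3 was, fell by 0.61 ± 0.19 and SCW10, a cell wall protein of mating cells, by 0.41 ± 0.06. The MAT-a and haploid markers given above were also far lower in the hybrid, and their part in these falls was not tested.

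At the ends of the chromosome few genes could be read. On the left, TUB3 and YML122C had at most 7 reads in any allele column and were not tested, and MSC1 had 4 to 16 reads per allele in the hybrid, against 12 to 22 in the co-culture. On the right, ADH6 followed the chromosome while its neighbours FET4 and YMR320W departed over the median. Beside the centromere, YPT7 on the left arm had a hybrid log2 ratio of 0.52 ± 0.10 and CDC5 on the right arm 0.38 ± 0.10, and neither departed.

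Promoter windows held the TATA core in 42.9% of the 49 genes below the range, 40.4% of the 178 inside it and 40.0% of 35 above it. The Aft1 letters stood in none of the genes below, in 1.12% of those inside and in 2.86% of those above, which is 1 gene, FET4. The Gcn4 letters stood in 12.2% of the genes below, 6.74% of those inside and 25.7% (9 genes) of those above, beside the 7.98% of all windows. These shares are descriptions, since the groups were set by the same reads and the motif was picked after values had been seen.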

How the data were processed

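The authors deposited whole-number read counts on SNP sites for 4442 gene pairs in 4 libraries, with RM and BY reads in separate columns, per the file headers. Reads were handled with CASAVA 1.8.2 and Bowtie, per the submitters' processing notes, and the genome build, SNP set and strand handling were not named in the labels or headers (not given in the sources used here). Names and promoters came from R64, which matched 335 of the 346 genes, and 10 of them overlap another gene. Counts were tested with edgeR 4.0.16 in R 4.3.3 (quasi-likelihood, two-sided, TMM, filterByExpr with a minimum count of 10, Benjamini-Hochberg over all genes at 0.05). The allele fit used 8 columns with library as a block, each column scaled by its own size, which removes the mixing ratio. The departure fit added the median difference as an offset for chromosome XIII genes. Fits of totals and of each allele had 2 residual degrees of freedom. Ratios per library used a pseudocount of 0.5. DESeq2 1.42.0 was an alternative. Scripts were tested on simulated data.

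Members, 12 gene lists, motifs and naming rules were chosen with earlier results of these data known. Named genes, of those averaging 50 reads or more per allele column except at the ends and the centromere, were the 10 furthest under and over the median difference past 0.05 with both hybrid libraries on the same side, the 8 highest and 8 lowest co-culture ratios, the 6 most abundant within 0.10 of the median, up to 4 genes per list by departure p, and 3 genes at each end and those beside the centromere, with exceptions stated where they occur.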

Additional observations from a re-analysis of the deposited data

Results flagged for a closer look

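These 36 genes are those named above among 73 chromosome XIII genes that edgeR's test called apart from the chromosome median. The test set the difference, hybrid minus co-culture log2 RM over BY, against that median, at an adjusted p of 0.05 over all genes. The difference common to the genes of the chromosome is what chose the chromosome. Among these 36 genes, the departures of 22 lay under the median. They were −1.78 for FDO1, −1.58 for RPM2, −1.58 for NDE1, −1.47 for ERG5, −1.46 for HXT2, −1.25 for NDI1, −0.86 for ERG2, −0.77 for ADI1, −0.67 for NIP1 and −0.67 for PLB1. They were smaller for PPZ1 (−0.63), MRPS8 (−0.63), FET3 (−0.53), PLB2 (−0.51), ZRC1 (−0.50), ERG6 (−0.42), LCB1 (−0.39), TSA1 (−0.35), URA5 (−0.31), GUA1 (−0.29), RRP5 (−0.26) and SCW10 (−0.23).

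Among these named genes, the departures of 14 lay over the median, with RPL6A and FAR3 averaging under 50 reads per allele column. They were 1.89 for GCV2, 1.89 for FET4, 1.82 for DIA1, 1.49 for RPL6A, 1.13 for FAR3, 0.96 for RPS16A, 0.91 for RPL36A, 0.87 for EUC1, 0.77 for YMR320W, 0.68 for ARG7, 0.60 for SGS1, 0.57 for TAF11, 0.44 for YTA12 and 0.33 for FPR3.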

How the results depend on the processing

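Among the named genes compared under the alternatives run, no called value changed sign. Of their values that were not called, 18 did, over 12 genes and measures. Other called genes were not compared one by one. The split of genes called in the co-culture turned to 55 higher in RM and 71 higher in BY with column totals only, against 69 and 49. DESeq2 called fewer genes: 104 totals higher and 7 lower in the hybrid, 139 RM alleles higher, 40 BY alleles higher and 20 lower, 38 genes higher in RM and 23 higher in BY in the co-culture, and 3 departures over and 21 under the median. The median difference was 0.58 with column totals only and 0.58 with a library total shared by both alleles. A range of 0.50 left 26 genes below and 17 above it. Leaving out 1 library in turn gave 29 to 49 genes higher in BY in the co-culture and 11 to 17 departures over the median. The cause of these changes was not tested. The labels do not say what equal library numbers share, and deviations of same-numbered libraries correlated at 0.36 for totals and 0.003 for RM over BY, across genes. With the replicate block, 189 totals were higher and 21 lower, and departures were 27 over and 48 under. Depth limits genes with few reads: 83 members averaged under 50 reads per allele column.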
